A study of Mus musculus with 6 samples.

Results

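Cathepsins are proteases of the endosome and lysosome, and 10 of their genes (*Ctsa*, *Ctsb*, *Ctsc*, *Ctsd*, *Ctse*, *Ctsh*, *Ctsk*, *Ctsl*, *Ctss* and *Ctsz*) were followed here in inflammatory monocytes from the CNS. The 10 were chosen by name, out of 54232 genes in each file, and all 10 passed the filter on low counts, which kept 11254 genes. *Ctse* was upregulated 12.5-fold in WT compared with *Ifnar1*-/- monocytes, and no other of the 10 passed the main edgeR test. DESeq2, run as an alternative, also called *Ctsb* and *Ctsk* when no replicate block was fitted, and some edgeR alternatives called *Ctsk*. *Ctss* was the most abundant cathepsin mRNA in all 6 libraries, and its level did not pass the test between genotypes.

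The monocytes came from mixed bone marrow chimeras. Blood cell production had been rebuilt in GFP+ hosts after irradiation by marrow of both genotypes in equal parts, WT cells carrying CD45.1 and *Ifnar1*-/- cells CD45.2. Experimental autoimmune encephalomyelitis (EAE), a mouse model of multiple sclerosis, was induced after reconstitution, and the recipients received 30000 IU of IFN-b each day. At the peak of disease GFP-CD45+CD11b+Ly6ChiLy6G- cells were sorted from the CNS by CD45 variant, giving 3 WT and 3 *Ifnar1*-/- libraries. Cells of both groups had thus grown up in irradiated recipients with EAE and rIFN-β, and differed in donor and in *Ifnar1*, which encodes one chain of the type I interferon receptor. No library from mice without rIFN-β was analysed here. Ages were not given in the sources used here. The marrow went into 3 recipient mice, but no source used here ties each library to a mouse, so the p-values measure the spread between these libraries, which may be technical. The libraries held 4531782 to 7321380 expected counts (reads assigned to genes).

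Lysosomal proteases are made as inactive precursors, sorted through the secretory pathway and activated in acidic vesicles. By the residue that cuts they fall into cysteine cathepsins (B, C, H, K, L, S and Z), aspartic cathepsins (D and E) and serine carboxypeptidases such as cathepsin A. In myeloid cells they degrade engulfed protein, trim antigen and the invariant chain for MHC class II loading, cleave endosomal Toll-like receptors and activate other proteases.

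Markers were read first. *Lyz2*, the most abundant of 7 monocyte markers, had 3211 to 5271 normalized CPM (expected counts scaled by library size and TMM factor), and the summed level of all 7 was 9587, 7801 and 8864 CPM in WT libraries 1, 2 and 3, and 9523, 8262 and 9429 CPM in *Ifnar1*-/- libraries 1, 2 and 3. Values below follow the same order of libraries. *Ly6c2*, a gene of the sort marker, was higher in WT (log2 fold change 1.40, edgeR adjusted p = 0.00957). *Ccr2*, the chemokine receptor of these monocytes, was at 648, 694 and 587 CPM in WT and 1269, 794 and 905 CPM in *Ifnar1*-/- libraries, without overlap (log2 fold change −0.62, edgeR adjusted p = 0.143). DESeq2 called *Ccr2* lower in WT and *Fcgr1* higher. *Ifnar1* was at 153, 126 and 111 CPM in WT and at 109.9, 102 and 109 CPM in *Ifnar1*-/- libraries (log2 fold change 0.28, edgeR adjusted p = 0.360). In CPM every WT library was above every *Ifnar1*-/- library, by little. In TPM, a unit that also corrects for transcript length, the higher values were mostly in *Ifnar1*-/- libraries. They were 32.2, 43.0 and 36.7 TPM in WT and 46.75, 48.7 and 41.7 TPM in *Ifnar1*-/- libraries, with overlap. The cause of this difference between units was not tested. Values for the whole gene do not show which exons were read, so the labels were not checked from this gene.

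Promoter sequence from RefSeq (build GRCm38.p6, 250 bases before to 50 after an annotated start) was at hand for 7 of the 10 genes, in 8 windows, since *Ctsa* has a pair of starts. *Ctsb*, *Ctse* and *Ctsh* had no entry. Motifs were searched on both strands: the interferon-stimulated response element (GAAA repeated after any 2 bases), the gamma-activated sequence (TTCNNNGAA) and the CLEAR element (TCACGTGA), known from the promoters of lysosomal genes. Of 32851 promoter windows in the table, 3.44%, 8.3% and 0.974% held these motifs. The 4 windows printed are those with a response element or a CLEAR match, and that of *Ctsk*, the neighbour of *Ctss*. The motif is in capitals.
Ctss, chr3:95526536-95526835, plus strand: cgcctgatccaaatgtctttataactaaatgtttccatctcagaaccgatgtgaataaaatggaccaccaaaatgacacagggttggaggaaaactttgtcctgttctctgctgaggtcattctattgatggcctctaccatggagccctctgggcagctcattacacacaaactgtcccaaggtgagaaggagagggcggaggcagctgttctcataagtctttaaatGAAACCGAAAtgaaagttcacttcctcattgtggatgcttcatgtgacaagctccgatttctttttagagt
Ctsk, chr3:95498960-95499259, plus strand: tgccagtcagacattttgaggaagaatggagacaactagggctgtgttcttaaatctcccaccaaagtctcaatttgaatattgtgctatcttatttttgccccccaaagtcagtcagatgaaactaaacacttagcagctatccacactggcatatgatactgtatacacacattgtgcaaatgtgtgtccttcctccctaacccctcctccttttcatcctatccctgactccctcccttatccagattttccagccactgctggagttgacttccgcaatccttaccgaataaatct
Ctsd, chr7:142387778-142388077, minus strand: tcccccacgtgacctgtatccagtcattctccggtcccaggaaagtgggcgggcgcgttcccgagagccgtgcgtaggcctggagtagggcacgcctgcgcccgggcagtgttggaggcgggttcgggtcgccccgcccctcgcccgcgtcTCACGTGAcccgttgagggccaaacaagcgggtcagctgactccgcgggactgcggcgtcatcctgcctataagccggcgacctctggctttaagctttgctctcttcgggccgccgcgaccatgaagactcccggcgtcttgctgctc
Ctsa, chr2:164833523-164833822, plus strand: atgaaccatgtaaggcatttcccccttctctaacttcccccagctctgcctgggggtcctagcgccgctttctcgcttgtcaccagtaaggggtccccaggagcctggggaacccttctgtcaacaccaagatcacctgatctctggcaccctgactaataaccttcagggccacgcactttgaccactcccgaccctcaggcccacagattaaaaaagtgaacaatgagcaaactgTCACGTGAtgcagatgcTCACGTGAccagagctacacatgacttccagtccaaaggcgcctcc

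The *Ctss* window held 1 interferon-stimulated response element, at bases 230 to 239 of 300. *Ctsk* had none of the 3 motifs, although its end lies 17.4 kb from the start of *Ctss* on the same strand of chromosome 3. *Ctsd* held 1 CLEAR element at bases 152 to 159, and the window of the downstream *Ctsa* start held a pair of them, at bases 238 to 245 and 255 to 262. *Ctsc* held a gamma-activated sequence. *Ctsl*, *Ctsz* and the upstream *Ctsa* window held none of them. A match is a string of letters, and whether a factor bound there was not measured.

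The first question was which cathepsins these monocytes transcribed, and how much of each. Levels are compared between genes in TPM, the deposited unit that corrects for transcript length and depth. *Ctss*, the cysteine protease known for trimming the invariant chain in antigen-presenting cells, had 2931, 4003 and 4389.95 TPM in WT and 2435, 3536 and 3276 TPM in *Ifnar1*-/- libraries. It ranked from the 3rd to the 12th most abundant of 21970 protein-coding genes, and it made up 52.3% to 59.7% of all cathepsin TPM. *Ctss* was above *Ctsc*, next in order, in 6 of 6 libraries.

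Below *Ctss* came a group of similar TPM levels. *Ctsc* encodes dipeptidyl peptidase I, which activates the serine proteases of leukocyte granules, and ran from 461 to 868 TPM. *Ctsb*, an abundant cysteine protease with both endo- and exopeptidase activity, ran from 351 to 569 TPM, and *Ctsd*, the main lysosomal aspartic protease, from 309 to 545 TPM. *Ctsb* was above *Ctsd* in only 4 of 6 libraries, so these neighbours were not set apart in TPM. *Ctsz*, a carboxypeptidase, lay between 264 and 496 TPM, and *Ctsh*, an aminopeptidase, between 209.9 and 332 TPM. From *Ctsc* down to *Ctsl* the neighbours in this order, other than *Ctsb* and *Ctsd*, kept their order in 5 of 6 libraries each. *Ctsl*, an endopeptidase, had 199 to 290.3 TPM and was above *Ctsa* in 6 of 6 libraries. *Ctsa*, which also shields lysosomal galactosidase and neuraminidase from breakdown, had 108 to 153 TPM. Its 6 values were all above those of *Ctse* and *Ctsk*.

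*Ctse* and *Ctsk* were far rarer. *Ctse*, an aspartic protease of endosomes in immune and epithelial cells, had 30.4, 36.8 and 36.4 TPM in WT and 3.03, 2.99 and 2.23 TPM in *Ifnar1*-/- libraries. *Ctsk*, the collagen-cutting protease of osteoclasts, had 5.97, 5.80 and 6.80 TPM in WT and 2.78, 1.16 and 3.01 TPM in *Ifnar1*-/- libraries. *Ctse* was above *Ctsk* in 5 of 6 libraries, and below it in *Ifnar1*-/- library 3. The aspartic pair was therefore uneven: *Ctsd* exceeded *Ctse* 16.5-, 11.0- and 14.99-fold in TPM in WT, and 102-, 158- and 189.6-fold in *Ifnar1*-/- libraries.

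**Figure D1:**
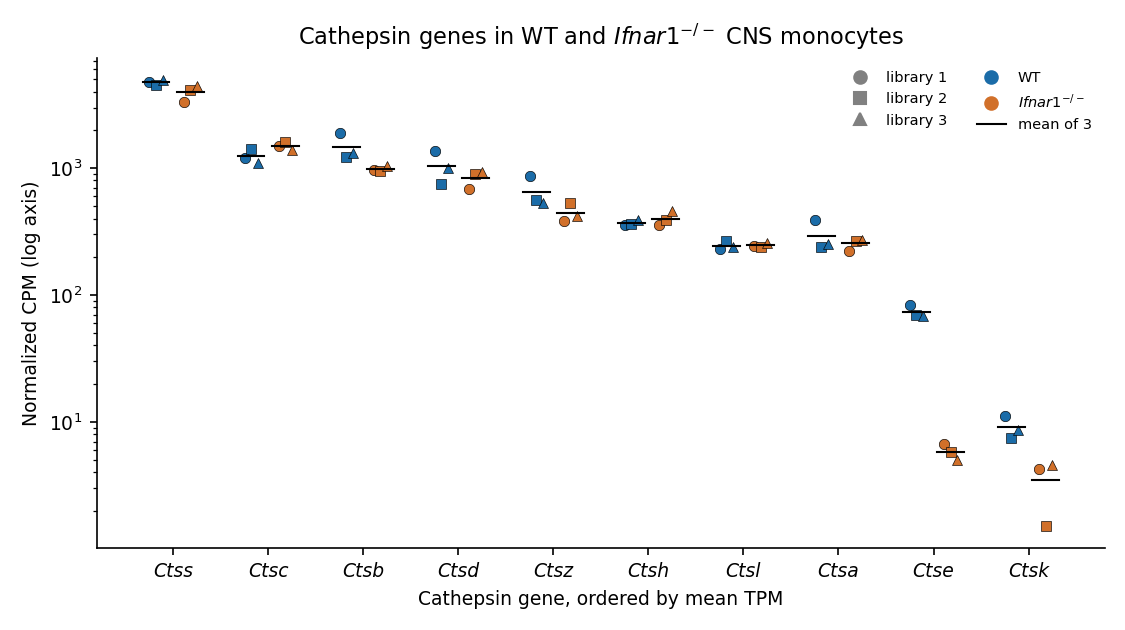
Normalized CPM (log axis) of the 10 cathepsin genes in each library, ordered by mean TPM, with WT in blue, *Ifnar1*-/- in orange, a marker shape per library number and a black line at the mean of 3. The WT and *Ifnar1*-/- points of *Ctse* stand far apart (67.7 to 82.7 against 4.97 to 6.72 CPM), while those of *Ctsl* lie on one another.

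Together the 10 genes took 0.551%, 0.695% and 0.735% of all TPM in WT (0.661% ± 0.0969, SD, n = 3) and 0.465%, 0.644% and 0.579% in *Ifnar1*-/- libraries (0.563% ± 0.0905, SD, n = 3). The groups overlapped on this scale. WT library 1 was the lowest of its group, and a single small RNA gene, *Rn7s2*, took 27.8% of its TPM. As a share of protein-coding TPM, without mitochondrially encoded genes, the cathepsins took 1.63%, 1.39% and 1.53% in WT and 1.12%, 1.30% and 1.38% in *Ifnar1*-/- libraries. On that scale the lowest WT library lay just above the highest *Ifnar1*-/- library.

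Within the cathepsin TPM, *Ctse* made up 0.525% ± 0.0292 in WT and 0.050% ± 0.0137 in *Ifnar1*-/- monocytes (SD, n = 3). *Ctsc* made up 9.44% ± 1.68 in WT and 13.2% ± 1.56 in *Ifnar1*-/- monocytes, and its WT shares (8.36%, 11.4% and 8.58%) all lay below the *Ifnar1*-/- shares (14.6%, 13.5% and 11.5%). *Ctss* made up 56.8% ± 3.33 and 54.6% ± 2.13. Shares of one total move against each other, and they are given as a description.

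**Figure D2:**
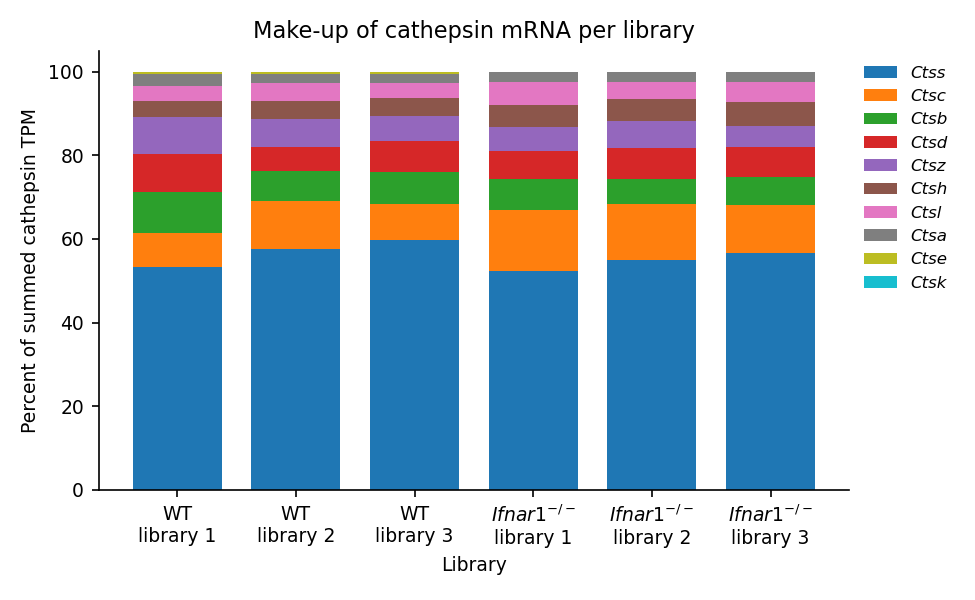
Percent of the summed TPM of the 10 cathepsin genes (y axis) taken by each gene (colours) in each of the 6 libraries (x axis). *Ctss* fills 52.3% to 59.7% of every bar, and the thin *Ctse* band at the top is seen only in the 3 WT libraries, where it is 0.494% to 0.552%.

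The comparison of WT with *Ifnar1*-/- monocytes asks which genes depended on the receptor, in cells of different donors from the same rIFN-β-treated recipients. Genes were called differentially expressed at a Benjamini-Hochberg adjusted p of at most 0.05 in edgeR's quasi-likelihood test, over all 11254 genes, with a fold change of at least 1.5. With this rule 2.13% of all genes tested were called in either direction and 1.67% were called higher in WT. Of the 10 cathepsin genes, 1 was upregulated in WT and 0 were downregulated. At an unadjusted edgeR p under 0.05, 4 were higher in WT (*Ctsb*, *Ctse*, *Ctsk* and *Ctsz*) and 0 were lower, against 9.69% and 8.14% of all genes tested. DESeq2 called 3 higher and 0 lower, against 2.78% and 0.915% of all genes, and limma-voom called 1 and 0, against 1.58% and 0.382%. With 3 libraries a group, the exact two-sided permutation test of a single gene cannot go below p = 0.1. In bulk RNA, fewer cells of a type and less RNA per cell cannot be told apart.

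*Ctse* (ENSMUSG00000004552.16, chromosome 1, 131638306 to 131675505, plus strand) had 82.7, 69.1 and 67.7 CPM in WT and 6.72, 5.76 and 4.97 CPM in *Ifnar1*-/- libraries, from 581, 325 and 343 counts and 44, 34 and 27 counts. The groups did not overlap, and the lowest WT library was above every *Ifnar1*-/- library by more than the range within either group. The log2 fold change was 3.64 (SE 0.18), or 12.5-fold with a 95% interval of 9.50 to 16.4, and the edgeR adjusted p was 2.93e-06. Reads of the gene were still seen in the *Ifnar1*-/- libraries, at 27 counts or more in each. Which cells gave these reads was not tested.

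*Ctse* lies 6.39 Mb from *Ptprc*, the CD45 gene whose variants mark the donors, and was the 1 cathepsin gene of the 10 within 20 Mb of it. There the chromosome of the CD45.1 donor may differ from that of the CD45.2 donor, so donor strain and receptor genotype cannot be told apart at *Ctse*. *Ptprc* itself was at 634, 612 and 669 CPM in WT and 675, 608 and 596 CPM in *Ifnar1*-/- libraries, with overlapping groups. Within 20 Mb of *Ptprc*, 10 of 164 genes tested were called, *Ctse* among them, or 6.10%, against 2.13% of all genes tested.

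Near *Ctse* itself, within 1 Mb on either side, 22 other genes were tested by edgeR and 0 were called. At an unadjusted p under 0.05, 3 were higher and 2 lower in WT, and DESeq2 called 1 of them, *Srgap2*, higher. Of these, 13 had log2 fold changes above 0, and the median was 0.05. The nearest, *Rab7b*, a small GTPase of late endosomes 13.2 kb away, had 18.1, 8.50 and 16.4 CPM in WT and 20.3, 26.8 and 30.3 CPM in *Ifnar1*-/- libraries, so its WT values lay below all *Ifnar1*-/- values (log2 fold change −0.83, SE 0.27, edgeR adjusted p = 0.149). On the other side the nearest was *Srgap2*, 111 kb away, with 157, 86.7 and 129 CPM in WT and 74.1, 63.0 and 81.3 CPM in *Ifnar1*-/- libraries (log2 fold change 0.77, SE 0.21, edgeR adjusted p = 0.0987). *Slc41a1*, a magnesium transporter gene 152 kb away, showed a log2 fold change of 1.06 (SE 0.26, edgeR adjusted p = 0.0759). *Gm37954* had the highest of the 22, at 1.14, with an edgeR adjusted p of 0.296 and overlapping groups.

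**Figure D3:**
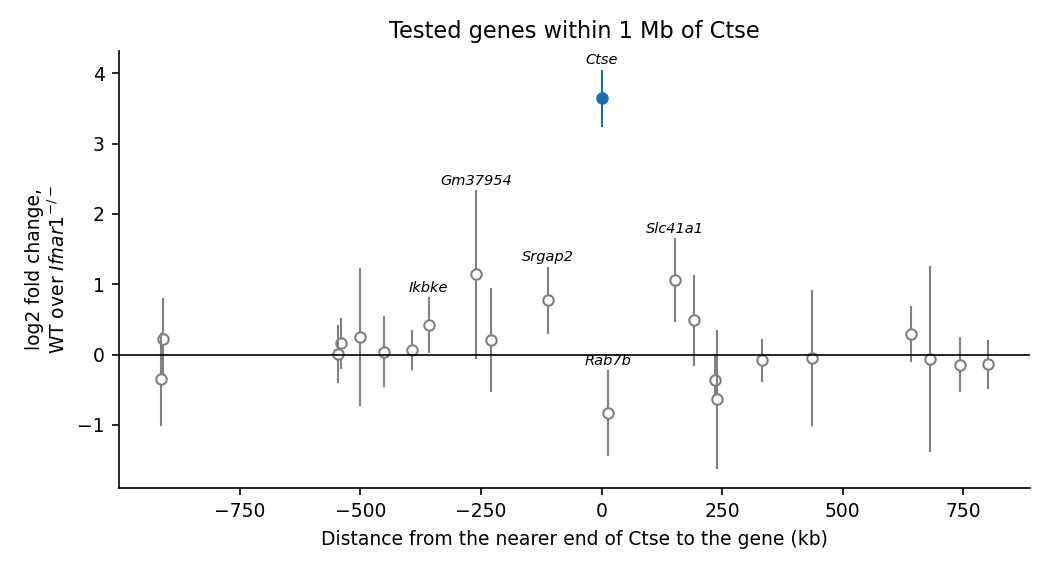
Log2 fold change, WT over *Ifnar1*-/- (y axis, edgeR), of *Ctse* and the 22 other tested genes within 1 Mb, against the distance from *Ctse* in kb (x axis), with bars for the 95% interval and a filled point for the called gene. *Ctse* stands at 3.64, and the others lie between −0.83 and 1.14.

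The protein-coding genes whose levels ran most like those of *Ctse* over the 6 libraries were *Oas1a* (Pearson r = 0.999), *Oas1g* (r = 0.998) and *Ifi27l2a* (r = 0.998), on log2(CPM + 0.5), out of 10054 compared. *Oas1a* had 178, 144 and 127 CPM in WT and 5.96, 6.10 and 5.15 CPM in *Ifnar1*-/- libraries. In all, 17 genes had r above 0.99. With 3 libraries in each of a pair of groups, any gene with a large, even difference between genotypes scores near 1, and the 3 named genes have close copies in the genome, so their counts are uncertain.

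*Ctsk* had the next largest difference. It was at 11.1, 7.44 and 8.69 CPM in WT and at 4.28, 1.53 and 4.60 CPM in *Ifnar1*-/- libraries, from as few as 9 counts in *Ifnar1*-/- library 2. The groups did not overlap. The log2 fold change was 1.39 (SE 0.37, 95% interval 0.58 to 2.21) and missed the threshold in edgeR (adjusted p = 0.0901). It passed in DESeq2 (adjusted p = 0.0390), where 2.78% of genes were called higher in WT, but not in DESeq2 with the replicate number as a block (adjusted p = 0.1). It also passed in edgeR without a filter on low counts (edgeR adjusted p = 0.000684), and with a length offset and the block (edgeR adjusted p = 0.0417). *Ctss*, its neighbour, had 4801, 4519 and 4936 CPM in WT and 3306, 4107 and 4419 CPM in *Ifnar1*-/- libraries. These groups did not overlap either, but the lowest WT and highest *Ifnar1*-/- libraries nearly met. The log2 fold change of *Ctss* was 0.27 (SE 0.19, 95% interval −0.15 to 0.69, edgeR adjusted p = 0.492), so a change in WT of more than 1.61-fold up or below 0.903-fold lay outside the interval. Without *Ifnar1*-/- library 1, the lowest of the 6, it was 0.17.

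*Ctsb* was at 1885, 1216 and 1325 CPM in WT and 961, 949 and 1038 CPM in *Ifnar1*-/- libraries. All WT values were above all *Ifnar1*-/- values, with WT library 1 far above the rest. Its log2 fold change was 0.59 (SE 0.19, 95% interval 0.16 to 1.02), with an edgeR adjusted p of 0.155 and a DESeq2 adjusted p of 0.0382, which passed. With the block in DESeq2 the adjusted p was 0.0894, and without WT library 1 the log2 fold change in edgeR was 0.38. *Ctsz* showed the same order of groups at 873, 556 and 531 CPM against 385, 529.7 and 418 CPM. The gap between WT library 3 and *Ifnar1*-/- library 2 was very small, and the log2 fold change of 0.56 (SE 0.22, 95% interval 0.07 to 1.04) did not pass (edgeR adjusted p = 0.219). Without WT library 1 it was 0.30.

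The aspartic protease gene *Ctsd*, unlike *Ctse*, had overlapping groups, at 1362, 754 and 1005 CPM in WT and 679, 899.6 and 928 CPM in *Ifnar1*-/- libraries. The log2 fold change of *Ctsd* was 0.32 (SE 0.23, 95% interval −0.19 to 0.82, edgeR adjusted p = 0.505). Without WT library 1 it was 0.08, without WT library 2 0.52 and without *Ifnar1*-/- library 1 0.21. The gap between the log2 fold changes of the pair was not tested, but their intervals did not meet. *Gm49369*, which overlaps *Ctsd* on the same strand, had a mean of 52.3 CPM beside 938 CPM for *Ctsd*, and reads of the pair could be divided between them.

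The carboxypeptidase gene *Ctsa* had 389, 238 and 252 CPM in WT and 222, 268 and 274 CPM in *Ifnar1*-/- libraries. Only WT library 1 lay above the *Ifnar1*-/- range, and the log2 fold change was 0.20 (SE 0.20, 95% interval −0.24 to 0.65, edgeR adjusted p = 0.638). Without that library it was −0.05. WT library 1 was the highest of all 6 for *Ctsa*, *Ctsb*, *Ctsd*, *Ctse*, *Ctsk* and *Ctsz*, and without it *Ctse* was still called, with a log2 fold change of 3.55 (edgeR adjusted p = 2.19e-06).

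The remaining 3 genes had log2 fold changes below 0. *Ctsc* had 1211, 1421 and 1103 CPM in WT and 1488, 1612 and 1384 CPM in *Ifnar1*-/- libraries, overlapping only through WT library 2 (log2 fold change −0.26, SE 0.17, 95% interval −0.64 to 0.11, edgeR adjusted p = 0.448). *Ctsh* had 358, 365 and 389 CPM in WT and 357, 389 and 456 CPM in *Ifnar1*-/- libraries (log2 fold change −0.11, SE 0.15, 95% interval −0.45 to 0.22, edgeR adjusted p = 0.740). These groups overlapped almost fully. Without WT library 3 the log2 fold change of *Ctsc* was −0.16, and that of *Ctsh* ran from −0.17 without *Ifnar1*-/- library 1 to 0.01 without *Ifnar1*-/- library 3. *Ctsl* was the steadiest, with 229.9, 265 and 241 CPM in WT and 245, 241 and 256 CPM in *Ifnar1*-/- libraries (log2 fold change −0.01, SE 0.14, 95% interval −0.31 to 0.29, edgeR adjusted p = 0.975), a value whose sign turned in 10 of 19 alternative analyses. The intervals of *Ctsh* and *Ctsl* lay inside a 1.5-fold change in either direction, while that of *Ctsc* reached past it on the lower side.

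**Figure D4:**
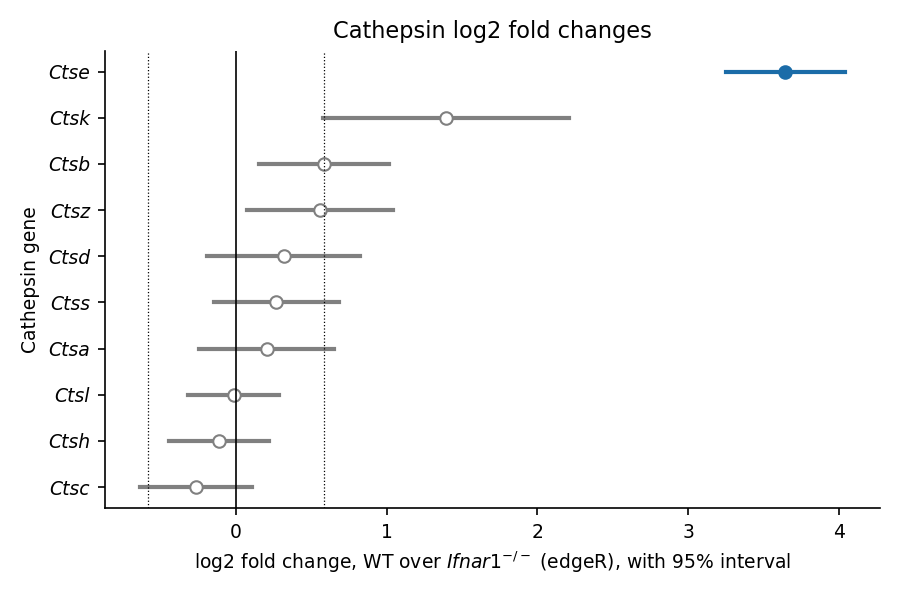
Log2 fold change, WT over *Ifnar1*-/- (x axis, edgeR), of each cathepsin gene (y axis) with its 95% interval, a filled blue point for the called gene and dotted lines at a 1.5-fold change. The interval of *Ctse* (3.25 to 4.04) lies clear of all others, and those of *Ctsk*, *Ctsb* and *Ctsz* lie above 0 without the gene being called.

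As a group, 7 of the 10 cathepsin genes (70%) had log2 fold changes above 0, against 48.2% of all genes tested, and their median was 0.29 against −0.01. Without WT library 1 the median of the 10 was 0.18, without *Ifnar1*-/- library 1 it was 0.19, and without WT library 2 it was 0.43. *Ifnar1*-/- library 1 had the lowest summed level of the 10 genes, 7655 CPM against 9002 and 9182 CPM in the other *Ifnar1*-/- libraries. WT library 1 had the highest, 11202 CPM against 9411 and 9858 CPM in the other WT libraries. Ribosomal RNA took 12.3%, 14.2% and 17.6% of counts in WT and 22.7%, 15.1% and 19.7% in *Ifnar1*-/- libraries. In edgeR without mitochondrial and ribosomal RNA genes the median of the 10 was 0.31, against 0.00056 for all genes. Beyond that fit, the part of ribosomal RNA in these values was not tested. In 5 genes (*Ctsb*, *Ctse*, *Ctsk*, *Ctss* and *Ctsz*) every WT library was above every *Ifnar1*-/- library, which was the case for 11.1% of all genes tested, and in 0 it was below, against 12.2% of all genes tested.

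The partners of the cathepsins were then read in 7 lists covering relatives, inhibitors, sorting, other lysosomal proteases, substrates and regulators. Of 81 names, 79 were found and 55 were tested, of which edgeR called 1 upregulated and 0 downregulated in WT, with a median log2 fold change of 0.17. At an unadjusted edgeR p under 0.05, 16 of the 55 were higher and 2 lower (9.69% and 8.14% of all genes tested), and DESeq2 called 5 higher (2.78% of all genes) and 0 lower. The called gene was *Tlr9*, the endosomal DNA receptor that lysosomal proteases cleave into its working form. It had 140.4, 98.0 and 81.5 CPM in WT and 31.3, 40.2 and 31.8 CPM in *Ifnar1*-/- libraries, with no overlap (log2 fold change 1.63, SE 0.21, edgeR adjusted p = 0.00199). The other 11 tested genes for endosomal receptors and antigen loading were not called by edgeR, while DESeq2 also called *Tlr3* and *Tlr7* higher. *Cd74*, the invariant chain and the most abundant of them, had 2314, 1244 and 2251 CPM in WT and 723, 1744 and 1823 CPM in *Ifnar1*-/- libraries, with overlapping groups (log2 fold change 0.44, SE 0.34, edgeR adjusted p = 0.549).

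Of 7 inhibitor genes tested 0 were called by edgeR, at an unadjusted p under 0.05 too, or by DESeq2. *Cst3*, encoding the secreted inhibitor cystatin C and the most abundant, had 374, 442 and 355 CPM in WT and 368, 456 and 424 CPM in *Ifnar1*-/- libraries (log2 fold change −0.09, SE 0.16, edgeR adjusted p = 0.806). Of 13 sorting and partner genes 0 were called by edgeR or DESeq2, and 4 were higher in WT at an unadjusted p under 0.05 (*Gga1*, *Grn*, *Neu1* and *Psap*). *Psap*, encoding the saposin precursor, had 4646, 3140.3 and 3397 CPM in WT and 2309, 2645 and 2740.4 CPM in *Ifnar1*-/- libraries, groups that did not overlap (log2 fold change 0.54, SE 0.20, edgeR adjusted p = 0.200).

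*Lgmn*, the asparagine-specific protease that processes several cathepsins, was the most abundant of 6 other lysosomal proteases, none of them called by edgeR, though DESeq2 called *Lgmn*. It had 558, 382 and 330.3 CPM in WT and 242, 268 and 259.8 CPM in *Ifnar1*-/- libraries. Its groups did not overlap (log2 fold change 0.72, SE 0.20, edgeR adjusted p = 0.101). Of 11 genes for lysosome regulators and membrane proteins 0 were called by edgeR or DESeq2, with 5 higher and 1 lower in WT at an unadjusted p under 0.05. Among them *Laptm5*, the most abundant, had 1053, 659.5 and 668 CPM in WT and 460.4, 657 and 484 CPM in *Ifnar1*-/- libraries (log2 fold change 0.57, SE 0.22, edgeR adjusted p = 0.217). There too WT library 1 was far above the others, and WT library 2 nearly met *Ifnar1*-/- library 2.

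**Figure D5:**
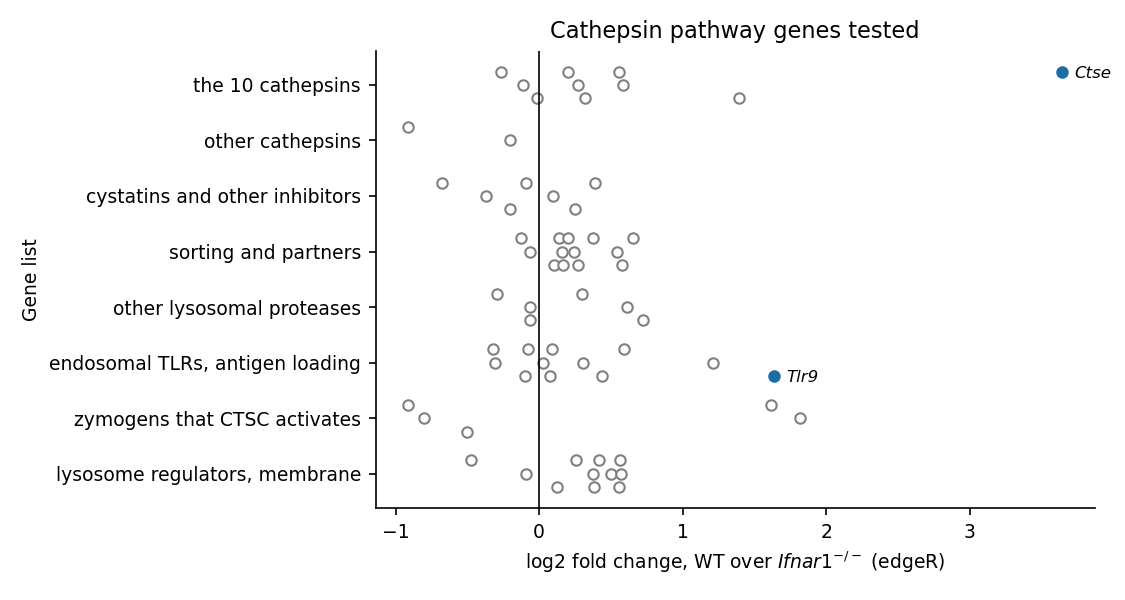
Log2 fold change, WT over *Ifnar1*-/- (x axis, edgeR), of the 10 cathepsin genes and of the tested genes of the 7 pathway lists (y axis, points spread vertically for legibility), with called genes filled. Only *Ctse* (3.64) and *Tlr9* (1.63) are filled. *Ctsg* is in 2 lists.

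Of 13 further cathepsin genes, 2 were tested. *Ctso*, a cysteine cathepsin, had 19.2, 21.7 and 20.7 CPM in WT and 25.8, 23.1 and 21.9 CPM in *Ifnar1*-/- libraries (log2 fold change −0.20, SE 0.16, edgeR adjusted p = 0.543), groups that did not overlap by a narrow margin. *Ctsg*, the serine protease of neutrophil granules, had 1.14, 7.01 and 15.2 CPM in WT and 8.70, 3.56 and 30.7 CPM in *Ifnar1*-/- libraries (log2 fold change −0.91, SE 0.80, edgeR adjusted p = 0.595). Library 3 of both genotypes was the highest in its group. *Ctsf* and *Ctsw* had at most 4 and 16 counts in a library. The other 9, known from the placenta, were at 0 counts in all 6 libraries. A count of 0 allows at most 3 counts in a library, or 0.410 to 0.662 CPM without the TMM factor.

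*Ctsg* is also a zymogen that the *Ctsc* product activates. Of 5 such granule protease genes tested 0 were called by edgeR and 1, *Gzmb*, by DESeq2. At an unadjusted edgeR p under 0.05, 2 were higher in WT, *Gzma* (log2 fold change 1.62) and *Gzmb* (1.82), the direction of the T cell markers given below. *Ctsg*, *Elane* and *Prtn3* had log2 fold changes below 0. The most abundant, *Prtn3*, had 15.2, 36.3 and 50.7 CPM in WT and 39.7, 27.5 and 76.7 CPM in *Ifnar1*-/- libraries (log2 fold change −0.50, SE 0.43, edgeR adjusted p = 0.582). The groups overlapped. The summed level of 10 neutrophil markers, of which *S100a9* was highest in mean TPM, was also lowest in WT library 1 and highest in library 3 of both genotypes, although single markers such as *Mmp8* did not follow that order. They summed to 354, 824 and 2378 CPM in WT and 1058, 906 and 2775 CPM in *Ifnar1*-/- libraries, although *Ly6g* was at most 0.790 CPM. Their part in the granule protease values was not tested.

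Markers of other cells that could carry cathepsins were set beside these values. Of 8 microglial markers 5 were tested by edgeR, and 0 were called by it, at an unadjusted p under 0.05 too, or by DESeq2. *Tmem119*, which defines microglia, had 2.13 to 11.4 CPM, with overlapping groups. T cell markers summed to 49.8, 21.04 and 48.4 CPM in WT and 20.5, 8.13 and 10.7 CPM in *Ifnar1*-/- libraries, with *Cd3g*, the highest of them in mean TPM, at 1.10 to 7.90 CPM. Of 6 T cell markers tested 0 were called by edgeR or DESeq2, although all 6 were higher in WT at an unadjusted p under 0.05 (9.69% of all genes tested), with a median log2 fold change of 1.62. Of 4 plasmacytoid dendritic cell markers 2 were tested by edgeR, and *Bst2*, itself an interferon-induced gene, was called (log2 fold change 2.10, edgeR adjusted p = 0.00325). *Siglech*, which defines these cells, was not tested and had at most 1.97 CPM. The 4 summed to 159, 121 and 101 CPM in WT and 64.6, 64.7 and 51.5 CPM in *Ifnar1*-/- libraries, without overlap. *Bst2* alone had 89.1, 67.8 and 48.0 CPM in WT and 10.7, 22.7 and 14.7 CPM in *Ifnar1*-/- libraries. For *Siglech*, *Ccr9* and *Tcf4*, the rest of the list, the groups overlapped. The part of T cells and plasmacytoid dendritic cells in the *Ctse*, *Ctsk*, *Gzma* and *Gzmb* values was not tested. Few markers of the remaining cell types were tested by edgeR. These were 1 of 5 for B cells, 1 of 4 for NK cells, 2 of 5 for dendritic cells and 2 of 6 for oligodendrocytes and neurons. Of 5 erythroid markers 0 were tested, so none could be called. Of those tested 0 were called by edgeR, and 1 (*Gzma*, an NK cell marker) passed at an unadjusted p under 0.05. DESeq2 called 0 of these markers.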

How the data were processed

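RNA from 3 WT and 3 *Ifnar1*-/- monocyte libraries was sequenced. For library preparation the labels name a low-input stranded total RNA kit of Takara, the study's methods a TruSeq kit. Per the submitters' processing notes, STAR 2.6.0c, RSEM 1.2.31 and GRCm38 were used; the counting strand was not given in the sources used here. The deposited files hold expected counts and TPM per gene, both made by the authors with RSEM; expected counts (4.09% of them not whole) were rounded. FPKM and the study's other assays were not analysed here. Of 54232 gene IDs, 54165 matched GENCODE M21.

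edgeR 4.0.16 (R 4.3.3) with TMM normalization and filterByExpr (minimum count 10) gave quasi-likelihood tests over 11254 genes, without a block. A gene was called at 1.5-fold or more with an adjusted p not above 0.05. Alternatives used DESeq2 1.42.0, limma 3.58.1 (voom, or trend on log2(TPM + 0.5)), other normalizations and filters, a length offset, a replicate block and leaving out each library. A further alternative called genes of the main fit on adjusted p alone, without the fold change rule. The code was tested on simulated data. Intervals for counts of 0 cover counting error only. Members and lists were chosen with earlier results of these data known. Named were the 10 cathepsin genes, called and most abundant genes of the lists, *Ifnar1*, *Ptprc*, tested genes within 1 Mb of *Ctse*, the 3 genes most correlated with *Ctse*, and, chosen after their values were seen, other list genes and cell markers. A few marker values are not reported here.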

Additional observations from a re-analysis of the deposited data

How the results depend on the processing

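*Ctse* was called upregulated in WT in all 19 alternatives, with log2 fold changes of 3.43 to 3.78, and *Tlr9* likewise (1.39 to 1.82). Among the alternatives, adjusted p alone used the main fit again, so its fold changes could not differ. With it included, over the 10 cathepsin genes and *Tlr9*, 192 of 208 gene-by-alternative results kept their direction and side of the threshold. Of the rest, 4 passed it newly and 12 turned sign. Cathepsin genes called higher in WT went from 1 to 3 with DESeq2 (*Ctsb*, *Ctse*, *Ctsk*; 1 with its replicate block), and to 2 without a filter on low counts or with a length offset and the replicate block (*Ctse*, *Ctsk*). *Ctsk* was not tested where at least 10 counts were asked of every library. Sign turned for *Ctsa* without WT replicate 1 (−0.046; up to 0.35 when another library was left out), for *Ctsh* without *Ifnar1*-/- replicate 3 (0.0077; down to −0.17 without another), and for *Ctsl* with DESeq2 (0.0019), RLE (0.00093), total counts (0.018), without mitochondrial and ribosomal RNA genes (0.00041), DESeq2 with the block (0.00035), a length offset (0.092), a length offset with the block (0.092), and without WT replicate 1 (0.040), WT replicate 3 (0.022) or *Ifnar1*-/- replicate 3 (0.029; down to −0.059 without another). Genes called higher in WT, 188 in edgeR, were 316 with DESeq2, 610 without a filter and 91 with limma-trend on TPM, and 110 to 204 when 1 library was left out. Genes called lower in WT, 52 in edgeR, were 104 with DESeq2, 32 with total counts, 262 without a filter, 21 with limma-trend on TPM, 26 with a length offset, 31 with a length offset and the block, and 7 to 41 when 1 library was left out. List genes called higher in WT went from 1 to 5 with DESeq2 (with *Gzmb*, *Lgmn*, *Tlr3* and *Tlr7*), 2 with total counts (with *Tlr7*), 7 without a filter, 3 with DESeq2 and the block (with *Gzmb* and *Lgmn*), and 1 to 2 when 1 library was left out. Those called lower went from 0 to 3 without a filter (*Ctsg*, *Elane* and *Serpinb1a*). These names were chosen after their values were seen. The cathepsin share was 1.52% in WT and 1.27% in *Ifnar1*-/- libraries of protein-coding TPM, and 1.02% and 0.852% of expected counts; it was 0.623% to 0.715% and 0.522% to 0.612% of all TPM when 1 library was left out. The cause of these changes was not tested, apart from the smaller totals behind the other shares.

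A replicate block in edgeR gave 220 called genes, 190 of them among the 240 called without it, and *Ctse* kept a log2 fold change of 3.65 (edgeR adjusted p = 1.12e-05). Deviations from group means correlated at 0.087, 0.027 and 0.29 between libraries with the same number, so the numbers were not taken to pair the samples. Not every library correlated best with its own number: WT library 1 gave 0.10 with *Ifnar1*-/- library 2. Depth limits *Ctsk* most, at 9 to 78 counts.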
